A study of Mus musculus with 6 samples.

Results

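Chromatin accessibility was described at 8 genes of lymphoid progenitor cells, Kit, Flt3, Myb, Lmo2, Rag1, Rag2, Dntt and Ptcra, in natural killer (NK) cells of mouse spleen. The members were the peaks of the deposited table whose nearest gene was one of these 8 and whose centre lay at most 150 kb from its transcription start site. This gave 29 of 51775 peaks, near 7 of the 8 genes: 9 at Myb, 8 at Kit, 3 each at Lmo2, Rag2 and Dntt, 2 at Flt3 and 1 at Rag1. Ptcra was the nearest gene of no peak.

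ATAC-seq, which tags accessible DNA with adapters carried by a transposase, was run on sorted NK cells that lacked CD3 and CD5 and carried NK1.1 and NKp46. The 6 libraries were 3 from wildtype mice and 3 from mice labelled Rroid deficient, all on the C57BL6 background, with 50000 cells per genotype used for transposition in triplicate. The Rroid locus lies near Id2 and makes a long noncoding RNA. The kind of Rroid allele, the age of the mice, and whether libraries of 1 genotype stem from different mice are not given in the sources used here, so p-values reflect no more than the spread of these samples, possibly a technical one. Libraries are called by the number that ends their column name, 1, 2 and 3 being wildtype and 4, 5 and 6 Rroid deficient. Values are reads per peak divided by 1 factor per library, called normalized reads, and coordinates of peaks are mm9.

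Kit and Flt3 are receptor tyrosine kinases through which stem cell factor and FLT3 ligand act on blood progenitors. Myb is a transcription factor of progenitor growth, and Lmo2 is a LIM-domain protein that bridges DNA-binding proteins in blood stem cells. Rag1 and Rag2 form the recombinase that cuts antigen receptor genes, Dntt encodes the terminal transferase that adds bases at the cut ends, and Ptcra encodes the invariant chain of the pre-T-cell receptor. Mature NK cells rearrange no antigen receptor genes. In lymphoid progenitors, E proteins bind E boxes near Rag1, Rag2 and Ptcra and activate them, and Id proteins such as Id2 keep E proteins off DNA.

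The promoters below are shown because the start sites of Kit, Flt3 and Myb lay in peaks that rose in Rroid-deficient cells, while Rag1 had no peak within 1 kb of its start site and Ptcra no peak at all. Each line holds the 250 bases before the start site, 5′ to 3′ on the gene's strand, from RefSeq (GRCm38.p6). Capitals mark the E boxes CAGCTG and CAGGTG, searched on both strands.
Kit, chr5:75574737-75574986, plus strand: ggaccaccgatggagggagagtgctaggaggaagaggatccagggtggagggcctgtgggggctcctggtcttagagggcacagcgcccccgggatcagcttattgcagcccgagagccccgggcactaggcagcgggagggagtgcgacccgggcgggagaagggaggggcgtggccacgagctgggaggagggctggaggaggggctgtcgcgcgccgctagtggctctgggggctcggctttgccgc
Flt3, chr5:147400490-147400739, minus strand: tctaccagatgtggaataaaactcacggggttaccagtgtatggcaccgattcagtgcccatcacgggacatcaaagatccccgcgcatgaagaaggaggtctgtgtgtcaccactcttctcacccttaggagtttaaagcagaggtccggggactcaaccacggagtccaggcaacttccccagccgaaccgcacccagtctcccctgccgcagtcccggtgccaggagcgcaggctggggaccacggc
Myb, chr10:21160985-21161234, minus strand: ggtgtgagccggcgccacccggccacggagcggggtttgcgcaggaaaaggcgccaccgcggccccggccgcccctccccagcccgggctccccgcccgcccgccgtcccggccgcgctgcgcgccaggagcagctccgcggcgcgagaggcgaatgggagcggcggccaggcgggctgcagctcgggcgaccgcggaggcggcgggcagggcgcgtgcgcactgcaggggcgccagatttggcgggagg
Rag1, chr2:101649533-101649782, minus strand: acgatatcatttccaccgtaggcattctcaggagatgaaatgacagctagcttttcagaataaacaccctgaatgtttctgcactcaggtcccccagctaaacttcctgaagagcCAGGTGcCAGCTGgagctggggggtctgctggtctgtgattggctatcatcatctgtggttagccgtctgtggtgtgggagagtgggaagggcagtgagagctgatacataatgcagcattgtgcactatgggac
Ptcra, chr17:46763713-46763962, minus strand: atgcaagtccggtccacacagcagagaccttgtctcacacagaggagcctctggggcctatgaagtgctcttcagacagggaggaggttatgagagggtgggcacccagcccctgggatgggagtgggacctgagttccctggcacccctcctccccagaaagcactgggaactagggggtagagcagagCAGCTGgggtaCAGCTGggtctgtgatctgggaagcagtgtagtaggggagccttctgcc
Of the 8 genes, 7 had a promoter in the RefSeq table. Neither E box stood in the windows of Kit, Flt3, Myb, Rag2 or Dntt. Rag1 held 1 CAGGTG from 135 to 130 bases and 1 CAGCTG from 128 to 123 bases before its start site, and Ptcra held 2 CAGCTG. At least 1 of the 2 E boxes stood in 27.7% of all 32851 promoter windows of this length, CAGCTG in 13.0% and CAGGTG in 17.2%. The RUNX core TGTGGT, searched the same way, stood 2 times in the Rag1 window and in 14.0% of all windows. Of the GATA motif AGATAA, the ETS core CCGGAA and the MYB core AACTG, there was 1 AGATAA at Dntt and 1 AACTG at Rag2, and these motifs stood in 10.0%, 12% and 39.1% of all windows. These matches describe letters in the windows and were not measured as binding sites. GC content was 70.8% at Kit, 59.2% at Flt3 and 81.2% at Myb, and 50.8% at Rag1, 41.2% at Rag2, 41.6% at Dntt and 60.4% at Ptcra, beside a median of 52.4% over all windows.

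Between 27572006 and 47939665 reads per library fell in peaks, and Rroid-deficient libraries 4 and 6 were the shallowest. Over the 10% of peaks with the lowest means, log2 values of libraries 4 and 6 deviated by a median of 0.31 and 0.20 from the average library, and those of the others by -0.16 to -0.01. After loess normalization, which evens out such deviations at low values, the low rising peaks had smaller log2 fold changes (0.92 at Kit 47.6 kb, 1.18 at Kit 120.5 kb and 2.11 at Myb 15.9 kb, beside 1.13, 1.36 and 2.35) and kept their calls. The 41 peaks nearest to Gm17746, on chromosome 12 where Id2 and Rroid lie, summed to 23100 to 27820 normalized reads in wildtype and 14240 to 16220 in Rroid-deficient libraries, without overlap. Among them were 13 peaks that kept under 10% of the wildtype value. Their sums, 4182 to 5600 and 51.4 to 56.8, are a description, since the peaks were chosen by that loss. The NK identity of the samples was checked at peaks within 1 kb of start sites. All 7 NK markers looked at (Ncr1, Klrb1c, Klrk1, Eomes, Tbx21, Prf1 and Gzmb) had such a peak. Their summed value was 20970 to 24370 in wildtype and 16610 to 20200 in Rroid-deficient libraries, and 4 of the 7 were called lower.

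Most member peaks were more accessible in Rroid-deficient cells, and the difference lay at Kit, Myb, Flt3 and Lmo2. Of the 29 peaks, 16 rose (55.2%) and 1 fell (3.45%) by limma (adjusted p under 0.05 over all peaks), and 12 had no call. Over all 51775 peaks, 13.8% rose and 12.1% fell. The members were chosen with earlier results of these data known, so this contrast is a description. The rising peaks were 7 of 8 at Kit, 7 of 9 at Myb, 1 of 2 at Flt3 and 1 of 3 at Lmo2, and none of the 7 peaks of Rag1, Rag2 and Dntt was called in either direction. The median log2 fold change of the 29 peaks was 0.55, beside -0.01 over all peaks, and ran from -0.66 to 2.35. The 3 Rroid-deficient libraries lay above all 3 wildtype libraries at 17 member peaks and below them at 2, where all peaks gave 20.0% and 20.1%. Without the shallow libraries 4 and 6, a single Rroid-deficient library is left. The median log2 fold change of the 29 peaks was then 0.72, beside -0.02 over all peaks. In these bulk samples, a higher share of cells with an open site and a site more open in each cell cannot be told apart.

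**Figure D1:**
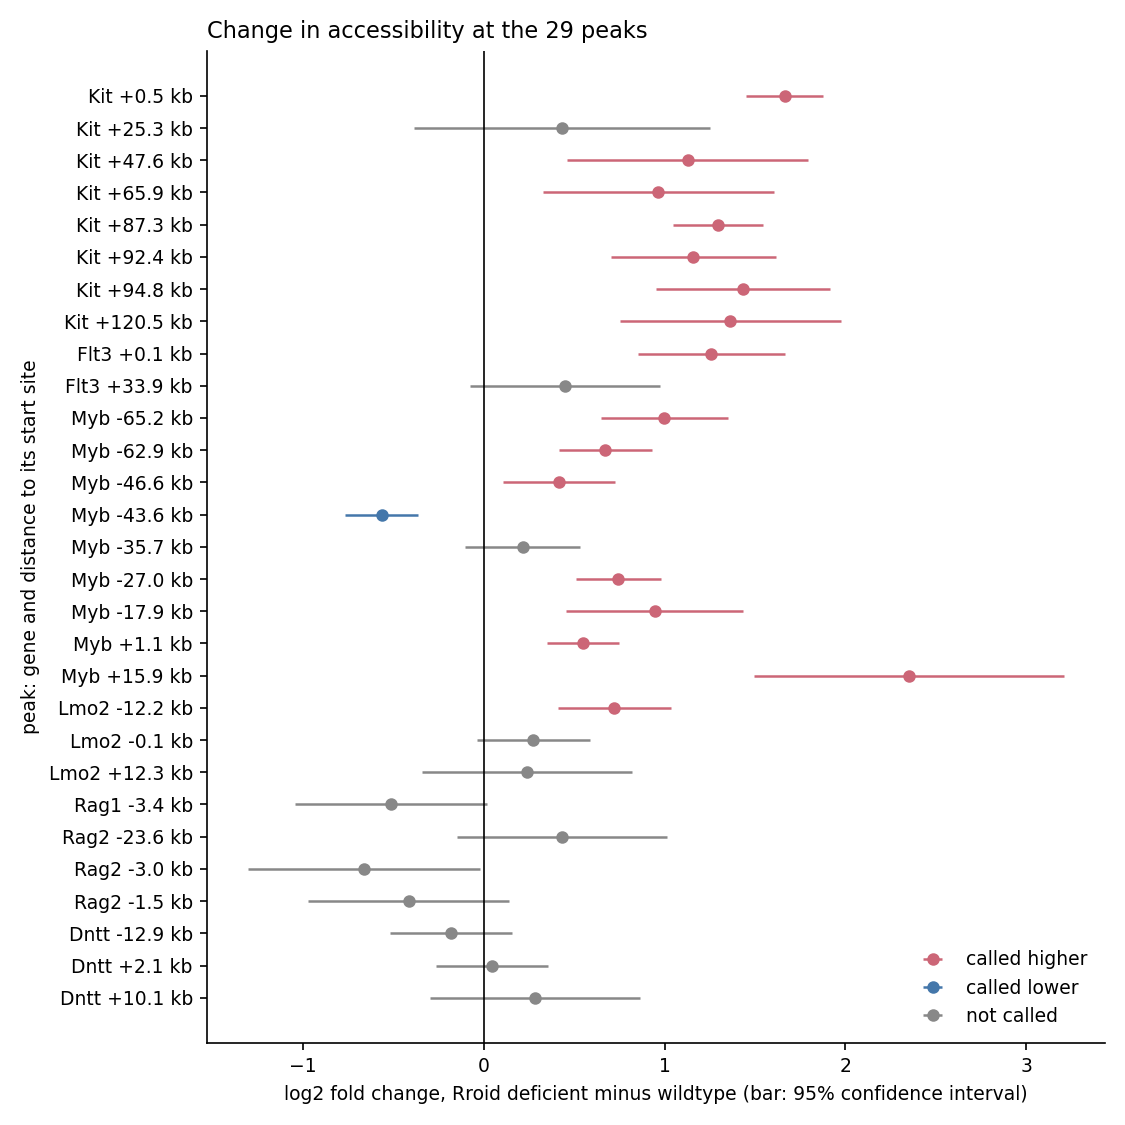
Log2 fold change (Rroid deficient minus wildtype) with its 95% confidence interval for each of the 29 member peaks, with the gene and the signed distance of the peak centre to its start site in kb on the vertical axis. The 16 rising peaks (red) belong to Kit, Flt3, Myb and Lmo2, the 1 falling peak (blue) lies 43.6 kb upstream of Myb, and the 12 peaks without a call are grey.

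At Kit, the receptor for stem cell factor, the peak over the start site rose most by p. This intronic peak (chr5:75970584-75972350) held 616, 610 and 574 normalized reads in wildtype libraries 1, 2 and 3, against 1833, 2097 and 1797 in the Rroid-deficient ones, in the order 4, 5 and 6. The groups lay far apart, with little spread inside either of them. The fold change was 3.17 (log2 fold change 1.66, SE 0.10, adjusted p = 9.06e-09, limma). By the distance of its centre and its width, the peak ran from 433 bp before to 1335 bp after the start site, so it would hold the printed window if both annotations place the start at the same base.

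A second strong Kit element lay 87.3 kb downstream of the start site (chr5:76057624-76059001), annotated as intergenic, on the side of the neighbouring gene Kdr. It held 637, 847 and 659 normalized reads in wildtype and 1651, 1929 and 1650 in Rroid-deficient libraries. All Rroid-deficient libraries were again well above all wildtype libraries, and the peak rose 2.45-fold (log2 fold change 1.29, SE 0.12, adjusted p = 5.58e-07). These 2 peaks together carried most of the Kit signal. The start-site peak held 38.4% ± 3.14 of the reads summed over the 8 Kit peaks in wildtype and 45.1% ± 0.742 in Rroid-deficient cells (SD, n = 3 each), and the shares did not overlap (exact permutation test, two-sided, p = 0.1, the smallest that 3 against 3 allows). The peak at 87.3 kb held 45.3% ± 3.08 and 41.2% ± 1.09 (exact permutation test, two-sided, p = 0.1). Its groups nearly met, with 42.3% in the lowest wildtype and 42.2% in the highest Rroid-deficient library. Both peaks were picked with their changes known, so the shares are a description and give no separate support.

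Lower Kit peaks rose as well. The peak at 94.8 kb held 48.1, 83.2 and 56.7 normalized reads in wildtype and 180, 168 and 152 in Rroid-deficient libraries (log2 fold change 1.44, adjusted p = 0.000179). Its neighbour at 92.4 kb went from 64.1, 80.7 and 60.6 to 184, 149 and 131 (log2 fold change 1.16, adjusted p = 0.000739). Farther out, the peak at 120.5 kb went from 27.6, 32.8 and 22.5 to 66.3, 77.1 and 72.5 (log2 fold change 1.36, adjusted p = 0.00214). None of these 3 intergenic sites had overlapping groups. Inside the gene, the intronic peak at 47.6 kb went from 24.0, 33.6 and 21.5 to 55.7, 50.5 and 68.9 (log2 fold change 1.13, adjusted p = 0.0141), and the one at 65.9 kb from 65.9, 35.3 and 31.3 to 105, 75.2 and 71.3 (log2 fold change 0.97, adjusted p = 0.0265). Both intronic calls rested on few reads, 22 to 57 and 32 to 79 per library. They were lost without libraries 4 and 6 (adjusted p = 0.189 and 0.209) and without some single libraries. At 47.6 kb, leaving out wildtype library 3 gave an adjusted p of 0.0564, and leaving out Rroid-deficient library 6 gave 0.0838. At 65.9 kb it was 0.0942 and 0.111 without wildtype libraries 2 and 3, and leaving out Rroid-deficient library 4 gave 0.11. The remaining Kit peak, at 25.3 kb, had no call. It held 27.1 ± 3.12 normalized reads in wildtype and 39.8 ± 17.8 in Rroid-deficient cells (mean ± SD, n = 3 each), and its groups overlapped.

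The 150 kb limit left 3 peaks of the member genes outside. The outermost Kit peak inside it was the one at 120.5 kb, and beyond it the peak at 164.6 kb held 134 ± 6.95 normalized reads in wildtype and 475 ± 59.7 in Rroid-deficient cells. A Kit peak 196.1 kb upstream held 36.9 ± 10.3 and 149 ± 7.27, and a Rag2 peak 151.7 kb upstream 148 ± 24.4 and 133 ± 30.8.

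Mast cells, which carry Kit as a defining receptor, and basophils were looked at through Cpa3, Fcer1a, Ms4a2, Mcpt8, Cma1, Hdc and Tpsb2. Only Mcpt8 of these 7 had a peak within 1 kb of its start site, and the other 6 had none that near. The Mcpt8 peak held 46.9 to 58.8 normalized reads in wildtype and 70.4 to 78.6 in Rroid-deficient libraries, without a call (log2 fold change 0.51, adjusted p = 0.136). Among progenitor markers, Cd34 and Meis1 had a start-site peak, and Ly6a and Gata2 had none. Their summed value was 2181 to 2368 in wildtype and 1693 to 1950 in Rroid-deficient libraries, and Meis1 fell (log2 fold change -0.33, adjusted p = 0.0138). The part of these cell types in the Kit result was not tested.

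At Flt3, the other receptor, the start-site peak rose. This peak (chr5:148211367-148212497), annotated in the first exon, held 360, 235 and 185 normalized reads in wildtype and 675, 640 and 499 in Rroid-deficient libraries. Wildtype libraries spread widely, yet the highest of them stayed below the lowest Rroid-deficient library. The fold change was 2.39 (log2 fold change 1.26, SE 0.19, adjusted p = 0.000127). An intronic Flt3 peak at 33.9 kb held 54.4 ± 8.60 and 74.0 ± 6.04 normalized reads (SD, n = 3 each). Its groups did not overlap, but it was not called (adjusted p = 0.203). Flt3 is also a marker of dendritic cells. In a list of 6 myeloid and dendritic markers (Lyz2, Csf1r, Cd14, Itgax, Siglech and Flt3), Lyz2, Csf1r and Siglech had no start-site peak, Cd14 and Itgax had one without a call (log2 fold change -0.14 and -0.16), and Flt3 itself was the only one called. Cd14 and Itgax together held 910 to 1215 normalized reads in wildtype and 926 to 1001 in Rroid-deficient libraries. With Flt3 included, the sum was 1095 to 1459 and 1425 to 1641, which holds the Flt3 rise itself. The part of such cells in the Flt3 result was not tested.

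**Figure D2:**
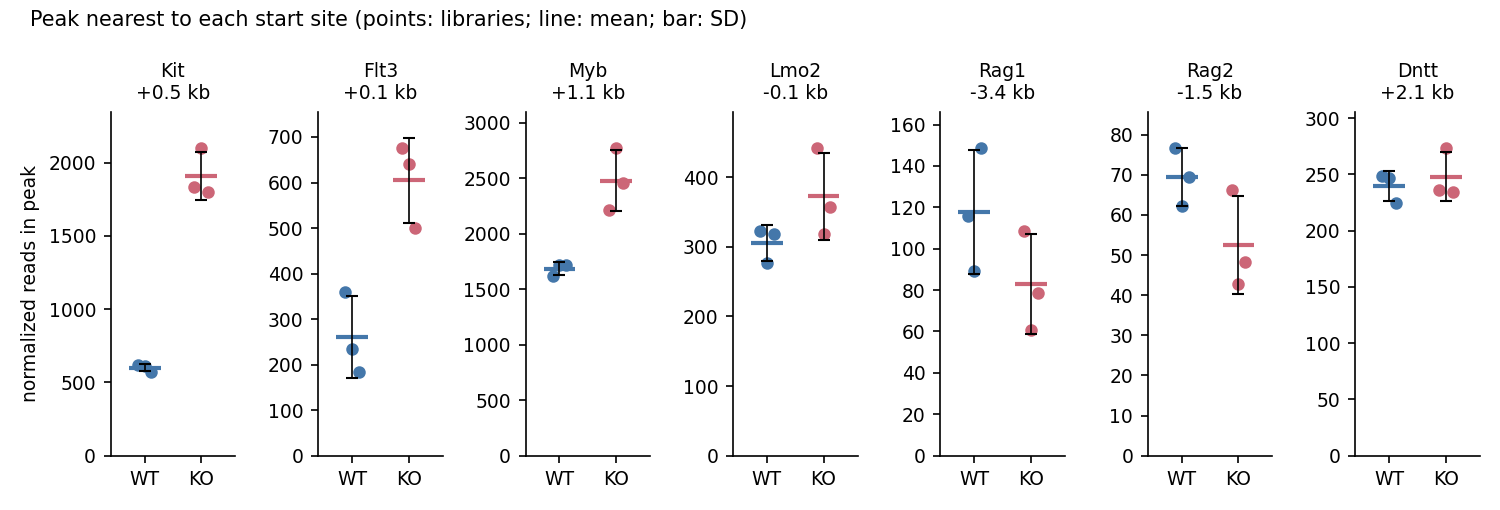
Normalized reads in each library at the peak nearest to the start site of the 7 genes with a peak, on a separate axis from 0 for each gene, with points for libraries (WT, wildtype, and KO, Rroid deficient), a line for the mean and a bar for the SD (n = 3). The groups stand apart at Kit, Flt3 and Myb and overlap at Lmo2, Rag1, Rag2 and Dntt.

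Myb, the transcription factor, behaved differently from Kit in that its peaks moved both ways. The peak over its start site (chr10:20877832-20881493, centred in its first intron) held 1622, 1722 and 1715 normalized reads in wildtype and 2215, 2770 and 2456 in Rroid-deficient libraries. The groups did not overlap, and the peak rose 1.47-fold (log2 fold change 0.55, SE 0.09, adjusted p = 0.000367). The highest Myb peak of wildtype cells fell instead. It lay 43.6 kb upstream (chr10:20922952-20925771, intergenic) and held 2813, 2731 and 2585 normalized reads in wildtype and 1598, 2031 and 1889 in Rroid-deficient libraries. Here every Rroid-deficient library was below every wildtype library, a 1.48-fold fall (log2 fold change -0.57, SE 0.10, adjusted p = 0.000339).

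Peaks on both sides of this falling site rose. The upstream peak at 27.0 kb (chr10:20906404-20909262) had the smallest p among rising Myb peaks. It held 500, 531 and 564 normalized reads in wildtype and 813, 966 and 898 in Rroid-deficient libraries (log2 fold change 0.74, SE 0.11, adjusted p = 0.00011). Upstream of the falling site, the peaks at 62.9 and 65.2 kb rose 1.59-fold and 2.0-fold, from 415 ± 33.3 to 663 ± 55.2 and from 182 ± 37.8 to 360 ± 18.3 (SD, n = 3 each). The peak at 17.9 kb rose 1.93-fold from 99.8 ± 34.8 to 189 ± 40.5 (adjusted p = 0.00634). The nearest neighbour of the falling site, 46.6 kb upstream, rose from 246 ± 33.5 to 327 ± 18.6 (log2 fold change 0.42, adjusted p = 0.0452). This last call was lost without wildtype library 1 or 2, or Rroid-deficient library 4, 5 or 6 (adjusted p of 0.0809 to 0.123). The peak at 35.7 kb had no call (349 ± 63.9 and 402 ± 36.6).

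**Figure D3:**
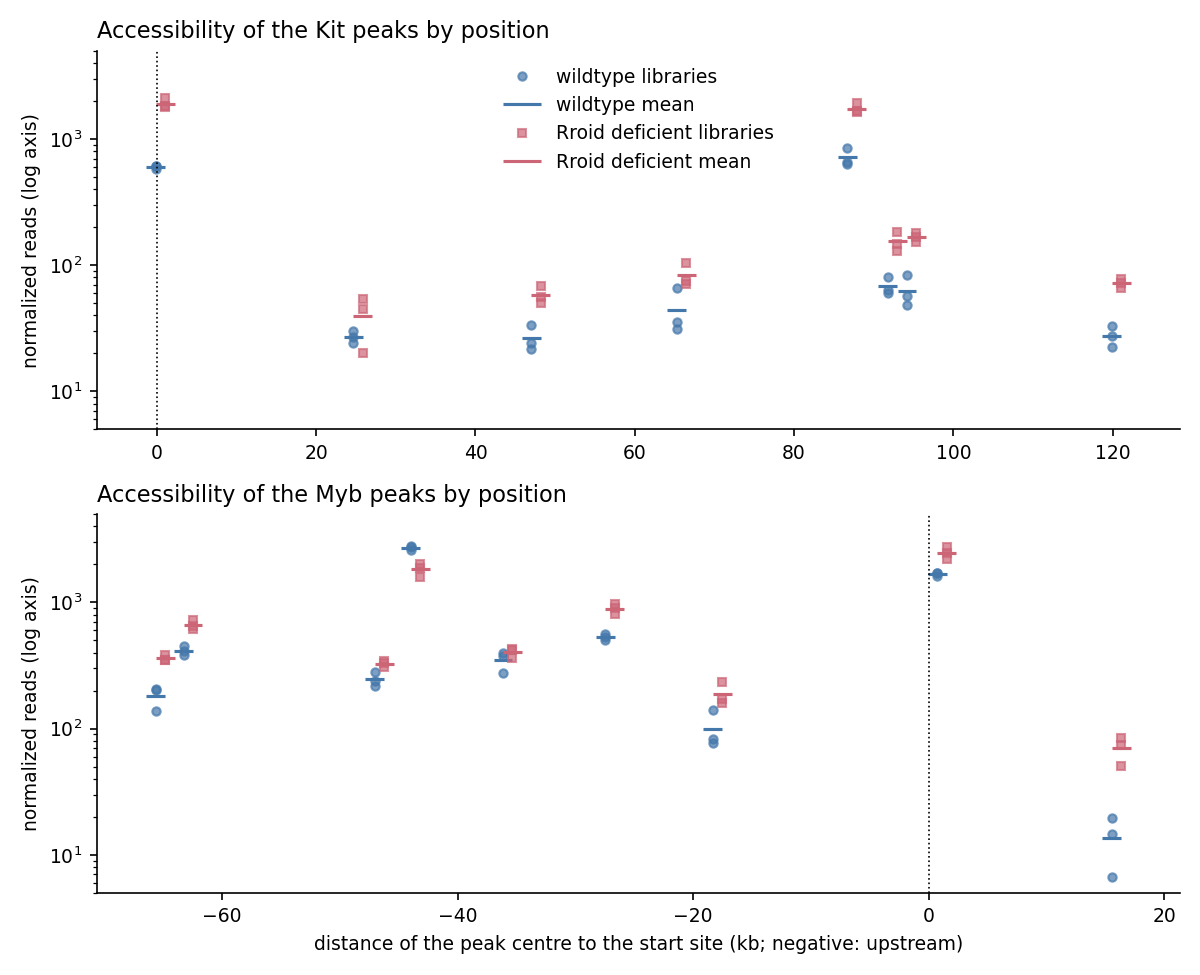
Normalized reads on a log axis at the 8 Kit peaks (top) and the 9 Myb peaks (bottom) by the distance of the peak centre to the start site in kb, with a point per library and a line for the mean, wildtype and Rroid-deficient values being set slightly apart sideways. Rroid-deficient libraries lie above wildtype at every Kit peak except the one at 25.3 kb, where they overlap, while the highest wildtype Myb peak, 43.6 kb upstream, is lower in Rroid-deficient libraries and peaks to either side of it are higher.

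Within Myb, the largest ratio stood at its lowest peak. An exonic peak at 15.9 kb (chr10:20864536-20865173) held 19.6, 6.72 and 14.7 normalized reads in wildtype and 74.3, 50.5 and 84.6 in Rroid-deficient libraries, a fold change of 5.11 (log2 fold change 2.35, SE 0.41, adjusted p = 0.000382). These wildtype values stand for 22, 8 and 15 reads, so the size of this ratio is imprecise although the groups did not overlap.

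The opposite changes shifted the balance between the Myb peaks. The falling site held 45.3%, 42.9% and 42.1% of the reads summed over the 9 Myb peaks in wildtype and 24.3%, 25.6% and 26.4% in Rroid-deficient libraries. The start-site peak held 27.1% ± 0.917 and 34.3% ± 0.647 (SD, n = 3 each). Neither share overlapped between genotypes (exact permutation test, two-sided, p = 0.1 for each, the smallest that 3 against 3 allows). At Kit and Myb 4 such shares were compared, so that an adjusted p is no smaller. These peaks were picked with their changes known. Their shares therefore describe the same changes again and give no separate support for them.

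At Lmo2, the bridging cofactor, the upstream peak rose and the promoter peak did not pass the test. The intergenic peak at 12.2 kb (chr2:103785422-103786477) held 477, 313 and 336 normalized reads in wildtype and 654, 614 and 565 in Rroid-deficient libraries. Its groups did not overlap, and it rose 1.65-fold (log2 fold change 0.72, SE 0.15, adjusted p = 0.00171). The promoter peak (chr2:103809374-103811368) held 322, 276 and 318 normalized reads in wildtype and 442, 318 and 358 in Rroid-deficient libraries, with a log2 fold change of 0.27 (95% confidence interval -0.04 to 0.59, adjusted p = 0.189). The third Lmo2 peak, at the end of the gene, held 64.1 ± 3.08 and 79.3 ± 26.9 without a call.

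The member peaks of Rag1 and Rag2 were low, and none of these peaks changed by the test. Rag1 had 1 peak, 3.4 kb upstream (chr2:101492553-101493553), with 116, 89.1 and 148 normalized reads in wildtype and 109, 60.9 and 78.6 in Rroid-deficient libraries. The groups overlapped, and the log2 fold change was -0.51 (95% confidence interval -1.04 to 0.02, adjusted p = 0.148). Rag2 had 3 peaks, each annotated in an intron of the overlapping gene. The nearest, 1.5 kb upstream, held 76.6, 62.2 and 69.3 normalized reads in wildtype and 66.3, 42.8 and 48.4 in Rroid-deficient libraries (log2 fold change -0.41, adjusted p = 0.269). The peak at 3.0 kb held 53.9 ± 8.21 and 34.0 ± 7.30 (log2 fold change -0.66, adjusted p = 0.121), with groups that did not overlap, and it was called lower after loess normalization (adjusted p = 0.0403). The peak at 23.6 kb held 53.1 ± 14.1 and 71.6 ± 15.0. A higher peak inside a Rag2 intron (chr2:101468334-101469565) is listed under B230118H07Rik, so that it is no member. Its centre lay 0.2 kb from the start site of B230118H07Rik, which the peak covered. It held 840 ± 146 and 681 ± 96.6 normalized reads, without a call (adjusted p = 0.118).

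Dntt, the terminal transferase gene, had 3 peaks. Nearest to its start site was an intronic peak at 2.1 kb (chr19:41105324-41106352), with 248, 247 and 225 normalized reads in wildtype and 236, 273 and 235 in Rroid-deficient libraries. The values of both genotypes lay in the same range, with a log2 fold change of 0.04 (95% confidence interval -0.27 to 0.36, adjusted p = 0.858). The upstream peak at 12.9 kb held 240 ± 4.11 and 214 ± 33.9, and the intronic peak at 10.1 kb 46.3 ± 3.30 and 57.1 ± 10.7. The 95% confidence interval of the log2 fold change included 0 at 6 of the 7 Rag1, Rag2 and Dntt peaks, and at the Rag2 peak at 3.0 kb it ran from -1.30 to -0.02. For Ptcra there is no value, since the table lists no peak nearest to it.

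Reads summed over all peaks of a gene within 150 kb gave 1 value per gene and were fitted over 16386 genes. By these sums Kit, Flt3 and Lmo2 rose and no member fell, where 10.9% of all genes rose and 9.64% fell. Kit went from 1507, 1749 and 1456 normalized reads in wildtype to 4120, 4566 and 3997 in Rroid-deficient libraries, 2.70-fold higher (adjusted p = 2.66e-07, limma). Flt3 rose 2.20-fold (adjusted p = 0.000551) and Lmo2 1.43-fold (adjusted p = 0.0102). Myb went from 6208, 6362 and 6133 to 6580, 7926 and 7159. Its sum was higher in all 3 Rroid-deficient libraries but not called (log2 fold change 0.21, adjusted p = 0.068). It was called without Rroid-deficient library 4 (adjusted p = 0.0331), and when each peak was weighted equally by the mean of log2 values (log2 fold change 0.70, adjusted p = 0.000576). Lmo2 lost its call with that equal weighting (adjusted p = 0.0645). Rag1, Rag2 and Dntt had log2 fold changes of -0.51, -0.16 and -0.02 (adjusted p of 0.188, 0.569 and 0.912).

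Among 11847 peaks within 1 kb of a start site, those most like the Kit start-site peak over the 6 libraries were at Nsg2, Dennd2d and Id3. Likeness was the Euclidean distance between log2 deviations from the mean of the libraries, which was 0.23, 0.29 and 0.33. Their log2 fold changes were 1.81, 1.61 and 1.68. For the Myb start-site peak, the most like were at Xdh, Gm38426 and Pik3cd (distances 0.14, 0.14 and 0.15, log2 fold changes 0.46, 0.49 and 0.50).

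Companion genes of the members did not share a direction. In the list of receptor ligands and signalling genes, 12 of 69 peaks rose (17.4%) and 3 fell (4.35%), with a median log2 fold change of 0.05. Kitl, which encodes stem cell factor, had 3 rising peaks of 5, and Flt3l, which encodes FLT3 ligand, had 1 peak without a call. A Cblb intronic peak, near the gene of a ubiquitin ligase that restrains receptor signalling, rose 2.32-fold from 442 ± 47.6 to 1021 ± 22.4. Of the 20 Cblb peaks, no other rose and 1 fell. A Ptpn11 intronic peak, at the gene of the phosphatase SHP2, fell 2.42-fold from 120 ± 13.0 to 49.9 ± 12.2. Of the 5 Ptpn11 peaks, no other fell and 1 rose. Without libraries 4 and 6, the median of this list was 0.01.

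Of 41 peaks near stem and progenitor transcription factors and surface markers, 2 rose (4.88%) and 9 fell (22.0%), and their median was -0.10. Meis1, a homeobox factor of blood stem cells, had 3 falling peaks and 1 rising one (the falling intronic one going from 164 ± 52.8 to 83.6 ± 10.1), and Tal1 and Lyl1, which encode basic helix-loop-helix partners of Lmo2, had 2 falling peaks each. Among peaks named for Lyl1, the one with the smallest p lay 21.8 kb downstream of its start site. It fell 1.81-fold from 253 ± 51.0 to 139 ± 22.9. Without libraries 4 and 6, the median of this list was -0.16. Of 47 peaks near Lmo2 and Myb partners, 5 rose (10.6%) and 7 fell (14.9%), a balance that turned to 8 and 3 when values were scaled to total reads. In it, Cbfa2t3, a corepressor gene, rose at 4 of 9 peaks, in one from 3076 ± 311 to 5668 ± 614, and Lmo4 fell at 3 of 8, its promoter from 1641 ± 208 to 1097 ± 43.0. Among E-protein genes, an intronic peak of Tcf12 rose 1.61-fold, while 1 of 2 Tcf3 peaks and 2 of 6 Tcf4 peaks fell and none of them rose.

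Near genes of V(D)J recombination and end joining, 5 of 29 peaks rose (17.2%) and 1 fell (3.45%). Their median was 0.05, and it was -0.04 without libraries 4 and 6. An intronic peak of Xrcc6, which encodes the Ku70 end-binding protein, rose from 30.5 ± 20.6 to 376 ± 43.2. An intronic peak of Polm, the polymerase most closely related to terminal transferase, rose 2.15-fold from 182 ± 37.8 to 387 ± 31.7, and a distal peak of Hmgb1 rose from 23.7 ± 5.32 to 85.5 ± 5.70. Near pre-T-cell-receptor and T-lineage genes, 14 of 69 peaks rose (20.3%) and 6 fell (8.70%), and the median was 0.07. The promoter of Cd3g, a subunit gene of the T-cell receptor complex, rose 5.93-fold from 58.7 ± 5.84 to 353 ± 33.5. Other genes of that complex differed, as the 1 peak of Cd3d fell, the 3 peaks of Cd3e had no call, and of 11 Cd247 peaks 1 rose and 2 fell. Dtx1, a Notch target, rose at all 5 peaks, the one with the smallest p going from 320 ± 28.1 to 644 ± 63.2. Lck, the kinase proximal to the T-cell receptor, rose at 3 of 5 (in one from 103 ± 25.3 to 392 ± 33.7), and Bcl11b, a factor of T-lineage commitment, fell at 3 of 14. Near B-lineage progenitor genes, 3 of 20 peaks rose (15.0%), 0 fell, and the median was 0.35 (0.10 without libraries 4 and 6). The rising peaks were 2 of 10 at Il7r, which is also in the first list, and 1 of 3 at Cd79b. The rising Cd79b peak lay 11.5 kb upstream of the start site, and its groups overlapped. No peak within 150 kb carried the name of Pax5, Vpreb1, Vpreb3 or Cd79a.

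**Figure D4:**
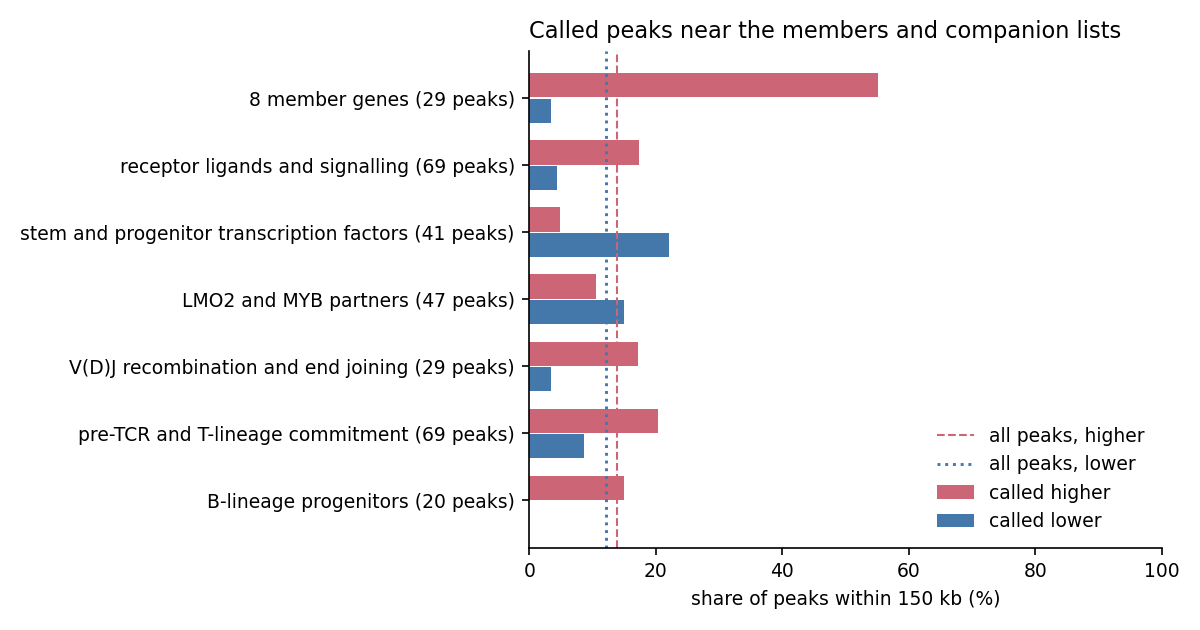
Share of peaks within 150 kb that were called higher (red bars) or lower (blue bars) in Rroid-deficient cells, for the 8 member genes and 6 companion lists, with the shares over all 51775 peaks as a dashed line (higher, 13.8%) and a dotted line (lower, 12.1%). The members reach 55.2% higher, while the companion lists lie between 4.88% and 20.3% higher. Members and lists were chosen with earlier results of these data known, and Kit and Myb hold 7 rising member peaks each.

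Markers of T and B cells, which the sort would remove, were read beside the recombination genes. Of 6 T-cell markers, Cd3e, Cd4, Cd8a and Cd6 had no peak within 1 kb of the start site. Cd3g and Cd5 had one and both were called higher, although the Cd5 groups overlapped, with a summed value of 96.7 to 174 in wildtype and 432 to 516 in Rroid-deficient libraries. Of the B-cell markers, Ms4a1, Cd79a and Pax5 had none, and Cd79b and Ebf1 summed to 142 to 216 and 206 to 292, without a call. Of 6 ILC2 and ILC3 markers only Il17rb had a start-site peak, with 67.2 to 81.0 and 51.4 to 103 normalized reads. The part of such cells in the values of the members was not tested.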

How the data were processed

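ATAC-seq of 3 wildtype and 3 Rroid-deficient NK cell libraries was used. The submitters' processing notes name build mm9 and the tools HOMER, DiffBind, MACS2 2.1.0, BWA, Trimmomatic 0.32, bcl2fastq 2.16.0 and R 3.1.1. Sources used here do not say which role each had, nor whether cut sites were shifted or duplicates removed. Deposited values are a normalized signal per peak, and per the file headers each peak carries its nearest gene and distance, an assignment that names no regulated gene. Within a tolerance of 0.01, 100% of the values in each library were whole multiples of 1 step, which gave the reads (27572006 to 47939665 per library).

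All peaks were fitted with limma 3.58.1 (intensity trend) after adding 1 and taking log2, with Benjamini-Hochberg adjustment over all 51775 peaks. Fold changes share that scale, on which the added 1 pulls those of low peaks toward 0. No sample title matches the endings 4, 5 and 6 of the Rroid-deficient columns, so nothing was paired. On the recovered reads, edgeR's quasi-likelihood test called 7080 peaks higher and 6246 lower, beside 7126 and 6257 by limma. Alternatives were edgeR 4.0.16, DESeq2 1.42.0 and limma-voom on the reads, other scalings, pseudocounts, filters and limits, and left-out libraries. Requiring a value of 10 in 3 libraries removed 0 peaks. The script was tested on simulated data. Members and lists were chosen with earlier results of these data known. Every member peak is accounted for. Values per library are given for the peak nearest to each start site, the called peak with the smallest p in each direction and peaks that changed at least 2-fold, and companion lists name up to 3 called peaks by p, of which some are not reported here. Others, such as Kitl, Dtx1, Bcl11b and counts per gene, were chosen after their values were seen.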

Additional observations from a re-analysis of the deposited data

How the results depend on the processing

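The count of 16 rising member peaks was also 16 with edgeR, DESeq2, limma-voom, both pseudocounts, total-read scaling, DESeq2 size factors, loess and an adjusted p limit of 0.1. It was 13 at a limit of 0.01, 15 within 100 kb, and 14 to 15 with single libraries left out. It became 9 when only peaks with a mean log2 value at or above the median were tested, since 14 member peaks, 9 of them rising, were then tested, and 9 within 50 kb, where fewer peaks are counted. The count of falling peaks was 1 throughout except 2 after loess, where the Rag2 peak at 3.0 kb was added. Summed values called 3 genes higher, 3 to 4 with single libraries left out. Over 17 alternatives, 458 of 478 log2 fold changes of single peaks kept direction and call. Signs turned at uncalled peaks only. Without libraries 4 and 6 these were Kit at 25.3 kb (-0.41), Lmo2 at 12.3 kb (-0.39), and Dntt at 12.9 kb (0.0003) and 10.1 kb (-0.0455). With single libraries left out, Dntt at 2.1 kb ranged from -0.0271 (Rroid-deficient library 5) to 0.0825 (Rroid-deficient library 6), and the Dntt sum from -0.0781 to 0.0411 (the same libraries). Equal weighting gave a Dntt sum of 0.0488. The cause of these turns was not tested. Over all peaks, 7126 rose and 6257 fell. Scaling to total reads gave 8229 and 4944 and moved the median of all peaks to 0.05. Fewer calls were made among upper-half peaks (3422 and 4703) and without libraries 4 and 6. Both directions also had fewer without wildtype library 2 (5446 and 4039) or 3 (5321 and 4606). The same held without Rroid-deficient library 4 (5499 and 4854) or 6 (5218 and 4173). Without wildtype library 1 the counts were 7508 and 6139, and without Rroid-deficient library 5 they were 7214 and 6304. No paired analysis was possible because the Rroid-deficient columns carry no replicate number of the sample titles. Counting error limits the peaks with the fewest reads most.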

Other observations

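The rise at Kit went on beyond peaks that carry its name, which was noticed after the values were seen. Between the start-site peaks of the neighbouring genes Pdgfra and Kdr lay 21 peaks. Of these, 17 rose and 0 fell (limma, adjusted p under 0.05), and 4 had no call. Over all peaks, 13.8% rose and 12.1% fell. The median of the 21 peaks was 1.28 on the log2 scale. The 10 peaks nearest to Kit included 9 of the rising ones, and 8 of the other 11 rose too. The rising peaks ran from 75681127 to 76236950 on chromosome 5 (mm9). Of the 7 rising peaks annotated to Kdr, the one with the smallest p, 142.7 kb from its start site, went from 411 ± 18.0 to 1004 ± 116 normalized reads (SD, n = 3 each, adjusted p = 6.27e-07). A peak nearest to Mir7025, on the Pdgfra side, rose 3.01-fold from 64.7 ± 6.78. At the ends of this stretch, the Pdgfra start-site peak held 315 ± 15.7 and 298 ± 38.4 normalized reads without a call (adjusted p = 0.697), and Kdr peaks from 125.2 kb to the start site had no call.

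Around Myb the stretch was shorter. Between the start-site peaks of Ahi1 and Hbs1l, 9 of 18 peaks rose and 1 fell, beside 13.8% and 12.1% over all peaks. Of the 9 that carry another gene's name, 2 rose. One of these, 8.5 kb upstream of Hbs1l, went from 60.3 ± 10.8 to 151 ± 23.4 (adjusted p = 0.000329). Of the 10 Ahi1 peaks within 150 kb of its start site, 5 fell and 1 rose. The rising one lies between the Ahi1 and Hbs1l start-site peaks and is already counted above. Beside Flt3, 1 of 4 Urad peaks rose, from 50.8 ± 18.8 to 424 ± 67.0 (limma, adjusted p = 7.66e-08), and 1 of 5 Pan3 peaks rose. Beside Dntt, 1 of 5 Opalin peaks rose, from 60.6 ± 31.2 to 209 ± 26.5 (limma, adjusted p = 8.32e-05), and the 1 Blnk peak had no call. No peak of these 4 neighbours fell. None of the 7 peaks of Traf6, beside Rag1, was called, nor the 1 peak of Cnpy3, beside Ptcra, which held 4347 ± 195 and 3911 ± 328.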
